A study of Homo sapiens with 7 samples.

Results

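Wild-type (WT) HUES8 cells, an established human embryonic stem cell line, were compared before differentiation (stem cells, WT SC) and at the end of a cardiac differentiation (cardiomyocytes, WT CM). Methylation had been read by enhanced reduced representation bisulfite sequencing, which enriches CpG-rich fragments and reads unmethylated cytosine as T and methylated cytosine as C. The reads of both strands of each CpG were summed, and CpGs with 10 or more reads in both libraries were kept. This left 1875667 of the 2586954 CpGs listed in any of the 7 libraries of the series, with a median coverage of 45 reads in WT SC and 64 in WT CM. Of these CpGs, 1546348 fell into the 90854 bins of 1 kb that held 5 or more of them, and these bins are described here. All coordinates are those of the genome build hg19.

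The stem cells were taken at day 0 with no differentiation factor. The cardiomyocytes had received 6 uM CHIR99021, an activator of Wnt signalling, until day 2, and 5 uM IWP2, a Wnt antagonist, from day 3 to day 5. Insulin was present from day 7. At day 9 the medium was changed to one without glucose and with 4 mM lactate for 3 days, a step named cardiac enrichment in the protocol. The WT CM library is dated day 14 by the series text and day 15 by its own description, and its source label names cardiac mesoderm, so its stage rests on its title. There is 1 library per group, so no difference can be set against the spread between cultures. The WT SC library and the WT day 3 library carry a suffix in their descriptions that WT CM lacks. What it marks is not stated, so the stage and a possible library set cannot be told apart. The other 5 libraries, cardiac mesoderm (CME, day 3) and cardiac progenitors (CP, day 8) of WT cells and SC, CME and CP of cells with TET1, TET2 and TET3 knocked out (TKO), had no part in the calls and are used only to show the levels there, where 5 or more of a bin's CpGs had 10 or more reads.

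DNA methylation at CpGs is written by the DNMT enzymes and is kept through cell division, while the TET enzymes oxidise methylcytosine on the way back to unmethylated cytosine. CpG-dense promoters are usually unmethylated in all cells, and most other CpGs are methylated. During differentiation the regulatory elements of the new cell type are known to lose methylation, and promoters of pluripotency genes such as POU5F1 are known to gain it.

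For 6 genes whose promoter windows were called lower in WT CM, the 250 bases before the start site are printed from RefSeq (GRCh38.p14), 5′ to 3′ along the gene. They were chosen after their values were seen, so that the measured CpGs can be read in their sequence. Capitals mark the CpGs that were measured in both libraries. The sequences were found in the hg19 data by their spacing of CpGs. TNNI3, cardiac troponin I of the thin filament, lies on the minus strand at chr19:55669101-55669350. MIR1-1HG, the host transcript of the muscle microRNA miR-1, lies on the plus strand at chr20:61147410-61147659. LDB3, a Z-disc protein, is on the plus strand at chr10:88428071-88428320. FXYD1, phospholemman, a regulator of the sodium pump, is on the plus strand at chr19:35630288-35630537. MESP2, a transcription factor of early mesoderm, is on the plus strand at chr15:90319313-90319562. MCF2L, a guanine nucleotide exchange factor with the largest fall of any promoter, is on the plus strand at chr13:113655778-113656027.
TNNI3: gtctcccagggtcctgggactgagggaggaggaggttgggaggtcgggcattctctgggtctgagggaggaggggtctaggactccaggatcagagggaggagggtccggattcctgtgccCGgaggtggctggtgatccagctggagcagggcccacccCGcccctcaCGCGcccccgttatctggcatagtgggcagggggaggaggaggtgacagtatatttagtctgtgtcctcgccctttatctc
MIR1-1HG: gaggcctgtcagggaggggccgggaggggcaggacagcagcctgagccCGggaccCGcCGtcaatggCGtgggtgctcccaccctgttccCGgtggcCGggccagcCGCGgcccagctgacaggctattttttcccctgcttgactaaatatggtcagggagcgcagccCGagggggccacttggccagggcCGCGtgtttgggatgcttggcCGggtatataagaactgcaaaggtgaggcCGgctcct
LDB3: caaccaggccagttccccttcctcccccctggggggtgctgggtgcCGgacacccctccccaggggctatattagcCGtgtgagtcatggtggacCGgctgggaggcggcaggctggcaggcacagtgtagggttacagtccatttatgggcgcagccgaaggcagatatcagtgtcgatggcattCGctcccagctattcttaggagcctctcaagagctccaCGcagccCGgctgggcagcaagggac
FXYD1: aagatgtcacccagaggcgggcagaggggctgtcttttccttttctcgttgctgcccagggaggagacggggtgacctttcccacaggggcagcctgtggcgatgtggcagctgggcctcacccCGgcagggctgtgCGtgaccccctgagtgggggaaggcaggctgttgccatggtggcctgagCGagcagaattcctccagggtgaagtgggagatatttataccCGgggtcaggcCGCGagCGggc
MESP2: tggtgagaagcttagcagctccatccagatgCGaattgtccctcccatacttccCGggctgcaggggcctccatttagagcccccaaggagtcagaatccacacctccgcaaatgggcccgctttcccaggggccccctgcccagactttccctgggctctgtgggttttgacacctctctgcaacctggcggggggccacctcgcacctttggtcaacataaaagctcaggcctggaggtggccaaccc
MCF2L: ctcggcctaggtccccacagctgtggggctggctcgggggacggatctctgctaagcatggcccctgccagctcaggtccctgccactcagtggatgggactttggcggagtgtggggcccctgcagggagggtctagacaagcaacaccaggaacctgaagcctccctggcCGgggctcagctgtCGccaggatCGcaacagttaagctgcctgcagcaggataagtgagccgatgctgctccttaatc
The host transcript MIR1-1HG is shown because its product miR-1 acts in heart and skeletal muscle. Its mature sequence, with the seed of bases 2 to 8 in capitals, is this.
hsa-miR-1-3p: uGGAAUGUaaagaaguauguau

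At the printed TNNI3 promoter, all 4 measured CpGs stood between 80% and 95.7% in WT SC and between 3.13% and 15.6% in WT CM. The 13 measured CpGs of MIR1-1HG ranged from 17.9% to 77.3% in WT SC and from 0% to 11.3% in WT CM. The 6 CpGs of LDB3 ranged from 23.4% to 66.7% in WT SC and from 0% to 21.9% in WT CM. At FXYD1 the 7 CpGs were at 64.3% to 93.9% in WT SC and 6.45% to 20.3% in WT CM. MESP2 had only 2 measured CpGs in the printed stretch, at 70.5% and 70.7% against 6.82% and 10%. The 3 CpGs of MCF2L stood at 74.1% to 88.7% and at 2.86% to 7.69%. At each of these promoters the ranges of WT SC and WT CM do not overlap, which their choice largely fixes. A search of both strands for AGATAA, a core of GATA factor sites, found it in TNNI3 alone of these 6 stretches, 71 and 7 bases before the start, where the printed strand reads ttatct. It occurs in 9.17% of all 35114 promoters, read over the same 250 bases. GGAATG, a core of TEAD sites that does not overlap it, was in none of the 6 and in 11.9% of all. A match is a description of the letters and says nothing of binding.

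Most of the measured genome kept its level from WT SC to WT CM, and nearly all large differences were losses. The mean level over CpGs was 42.8% in WT SC and 40.7% in WT CM, a difference of -2.09 points. Counting each read equally, it was 34.55% (95% Wilson interval 34.54% to 34.56%) in WT SC and 29.04% (29.03% to 29.04%) in WT CM. Here each library weights the CpGs by its own coverage, so a shift of reads between CpGs also enters this difference. CpGs over 80% made up 39.5% of those in WT SC and 36.3% of those in WT CM, and CpGs listed at 0% made up 29.9% and 39.5%. Of the bins, 73.6% lay within 5 points of each other in both libraries and 88.5% within 10 points. The median bin difference was -1.24 points. Mitochondrial CpGs, where the share of C was taken as a measure of cytosine left unconverted, showed C in 1.46% of their WT SC reads and 0.216% of their WT CM reads, a difference of -1.24 points. They numbered 317 in WT SC and 47 in WT CM, so these shares are not over the same set of CpGs. With these shares taken off, the mean difference over CpGs was -1.74 points and the median bin difference -0.82 points.

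A bin was called where Fisher's exact test (two-sided) on the methylated and unmethylated reads gave a Benjamini-Hochberg adjusted p below 0.01 and the levels differed by 25 points or more. By this rule 2643 bins (2.91% of all bins) fell and 116 (0.128%) rose, a ratio of 22.8. Every bin that differed by 25 points also passed the test, with the highest adjusted p at 0.00181, so the size sets the calls. Without the size, 32498 bins (35.8%) were lower and 3744 (4.12%) higher at the same adjusted p. These counts were taken without removing the unconverted share, which differed by -1.24 points between the libraries. Falls smaller than that also passed, as at SOX2 chr3:181430001-181431000 (-0.714 points, Fisher's exact test, adjusted p = 2.00e-07). The test compares the reads of these libraries, not the conditions, and covers counting error only. Just inside the limit lay a bin at chr16:85620001-85621000 with a difference of -25.007 points, and just outside it one on chromosome 1 with -24.996 points. There were 768 bins with falls of 25 to 30 points and 1118 with 20 to 25. The losses thus continue below the limit with no gap.

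**Figure D1:**
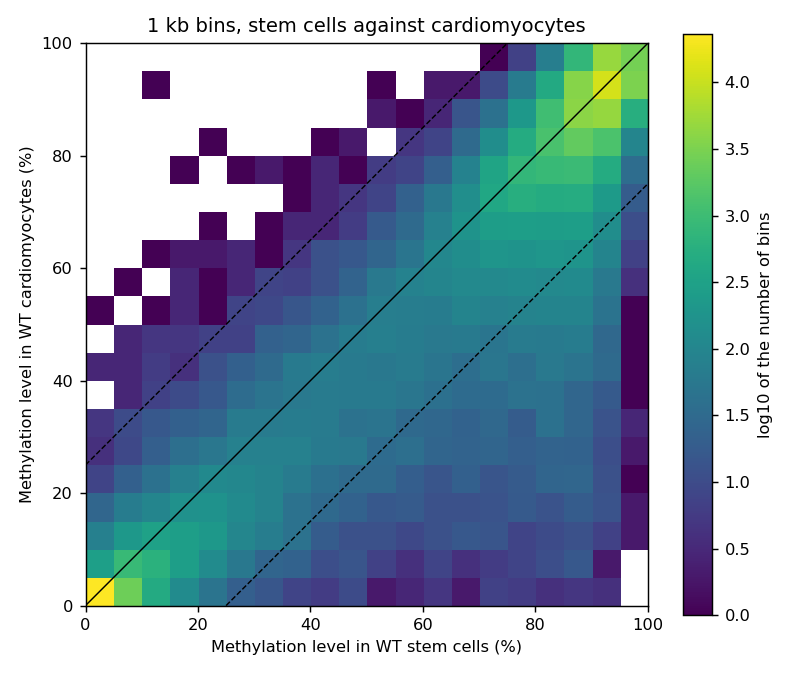
Methylation level of the 90854 bins of 1 kb in WT stem cells (horizontal axis, %) against WT cardiomyocytes (vertical axis, %), in squares of 5 points coloured by the log10 of the number of bins. The solid line marks equal levels and the dashed lines a difference of 25 points; 2643 bins lie below the lower line and 116 above the upper one.

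The plot of bin levels shows that most bins sat in the corners near 0% and near 90%, and that the losses spread over all lower levels. Starting level set where a fall could be seen. None of the 30024 bins under 20% in WT SC could be called lower, and 54 of them rose. Of the 11263 bins at 20% to 80%, 1195 (10.6%) fell and 62 rose. Of the 49567 bins over 80%, 1448 (2.92%) fell. Between 40% and 60% the share that fell was 14.998%, and from 90% upward it was 1.34%. The median level of the bins that fell was 81.7% in WT SC and 38.8% in WT CM, so the typical loss was partial: 528 of the 2643 ended under 20%.

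CpG-poor bins held most of the losses. Of bins with 5 to 9 CpGs 4.20% fell, of those with 10 to 19 CpGs 2.75%, of those with 20 to 39 CpGs 0.838%, and of those with 40 or more 0.0412%. The dense bins start low, with a median of 1.56% in WT SC. Within 1 kb of a located RefSeq start 1.05% of bins fell, against 3.19% to 3.63% in the 4 classes farther away. Among bins that started over 80% the order was the other way round, with 5.31% within 1 kb and 2.59% to 3.04% beyond 5 kb. Among bins that started at 20% to 80% it was not. There 9.49% fell within 1 kb, 12.4% at 1 to 5 kb and 9.84% to 10.8% beyond 5 kb. Inside located protein-coding genes 2.69% of bins fell, and outside them 3.11%. By chromosome the share ran from 1.54% on X to 3.96% on 16. Most losses were single bins: the 2643 bins formed 2533 runs, of which 2430 were 1 bin long and only 6 held 3 or 4 bins.

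In the other WT libraries, the step from cardiac mesoderm to cardiac progenitors held most of the losses. At the bins that fell, the medians were 81.7% and 79.8% in the early libraries (WT SC and WT CME) and 38.5% and 38.8% in the late ones (WT CP and WT CM). Of the 2531 bins measured in all 4, the largest step lay between WT CME and WT CP in 2434 (96.2%), before it in 20 and after it in 77. WT SC and WT CME share the suffix noted above and the higher mitochondrial C share (1.44% in WT CME, 0.219% in WT CP), so the step from WT CME to WT CP also parts the libraries by these, and the stage and a library set cannot be told apart at it. In TKO the same bins had medians of 85.1% (SC), 85.2% (CME) and 89.2% (CP), all above 80%. Bins with no call had medians of 83.7%, 83.6% and 87.1% in these libraries. The bins that rose moved more evenly, with medians of 22.1%, 36.3%, 47.5% and 56.3% along WT. Their largest step was the SC to CME step in 44 of 112, CME to CP in 43 and CP to CM in 25. By their medians TKO cells stood higher at these bins from the start, at 64.6%, 69.7% and 81.6%. The choice of bins that were lower in WT SC partly fixes this. TKO SC was under 20% in 21 of 113 of these bins and over 80% in 39.

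**Figure D2:**
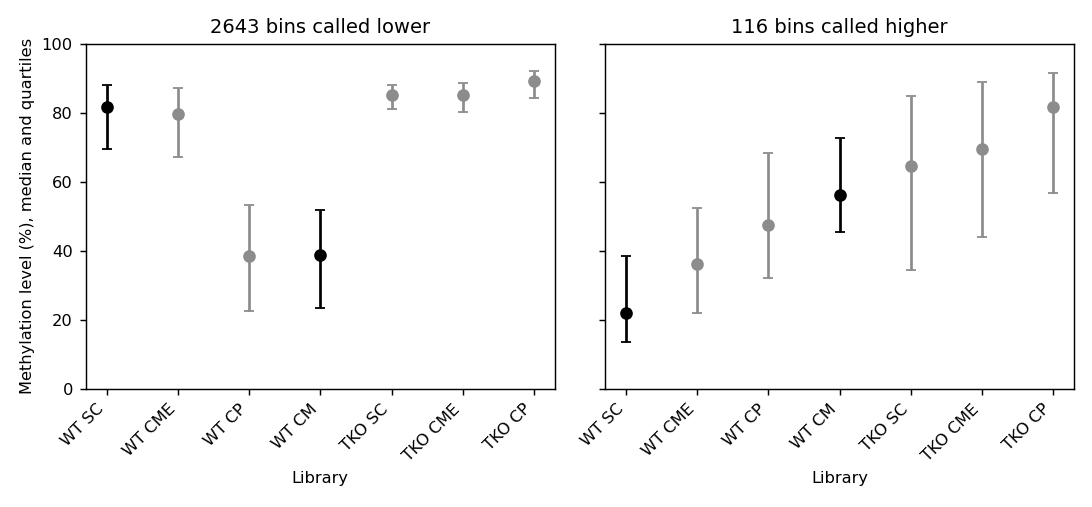
Methylation level (%) in each of the 7 libraries at the 2643 bins called lower and the 116 called higher in WT CM than in WT SC; points are medians over bins, bars run from the lower to the upper quartile, and black marks the pair used for the calls. The bins that fell stood near 80% in WT SC and WT CME, below 40% in WT CP and WT CM, and above 80% in all TKO libraries.

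As the plot over the libraries shows, the quartile ranges of WT SC and WT CM do not overlap, which the choice of the bins fixes. The levels in WT CME, WT CP and TKO were not part of that choice.

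The largest losses took nearly fully methylated bins to almost none. A bin inside the span of the CZ1P-ASNS readthrough gene, at chr7:97583001-97584000, held 93.0% in stem cells, 90.7% at the mesoderm, 11.6% at the progenitor and 2.12% at the cardiomyocyte stage, a fall by 90.9 points (6 CpGs, 114 reads in WT SC and 189 in WT CM). In CLEC16A, a gene of endosome and mitophagy biology, the bin at chr16:11227001-11228000 went from 91.0% (95% Wilson interval 88.0% to 93.3%) to 1.81% (0.833% to 3.898%). A bin with no located gene at chr10:80899001-80900000 had 12 CpGs and fell from 88.6% to 1.004%. In COL18A1, which encodes the collagen from which endostatin is cut, the bin at chr21:46831001-46832000 stood at 89.9% and 4.57%. PLXNA2, a semaphorin receptor, fell from 86.3% to 2.28% at chr1:208338001-208339000. The semaphorin SEMA3F itself fell from 94.3% to 11.6% at chr3:50220001-50221000. The other 6 of the 12 largest losses lay in IGSF21, SLC9A2 and LARP4B and in 3 bins with no located gene, with falls by 82.6 to 86.3 points. In all 12 the WT CP level was already at or under 31.2%, and in the 10 of them with a level in TKO CP it was 74.1% or more.

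Runs of neighbouring bins show where the losses were broad. The longest, 4 bins at chr11:1988001-1992000 with 93 CpGs, lay 21.1 kb past the start of MRPL23-AS1 and went from 65.5% in WT SC to 23.0% in WT CM. In COL18A1 a run of 3 bins, chr21:46829001-46832000, went from 89.2% to 24.2%. A run on chromosome 16, chr16:679001-682000, covered the start of WFIKKN1, an inhibitor of myostatin, and part of RAB40C, and went from 60.2% to 21.2%. Further runs on chromosome 16 at chr16:85568001-85571000 and chr16:85239001-85242000 held no located gene and fell by 64.4 and 41.7 points on average. The remaining run of 3 bins was TNNI3, described next. Rising bins formed 4 runs of 2 bins, in ZNF672, CUX1 and DACT3 and at chr7:2563001-2565000. DACT3, a Wnt pathway inhibitor, stood at 11.5%, 15.6%, 18.97% and 38.5% along WT.

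Of the sarcomere and Z-disc genes listed, 28 of 40 had a measured bin, with 166 bins in all. In all, 7 bins (4.22%) fell and none rose, against 2.91% and 0.128% of all bins, and the median difference was -0.98 points against -1.24. Those described here lay in TNNI3, LDB3 and MYH7B. TNNI3 had 3 adjoining bins called, of 5 measured. The bin over its start, chr19:55669001-55670000, had 86.6% of 528 reads methylated in WT SC and 23.5% of 353 reads in WT CM, with 83.6% and 17.4% in the stages between, a fall by 63.0 points (Fisher's exact test, adjusted p = 1.88e-80). The bins on either side fell from 81.6% to 50.3% and from 78.2% to 37.2%. The start region thus lost more than its neighbours. In TKO the start bin stayed at 89.6%, 87.4% and 87.9%.

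LDB3 had 1 of 7 bins called, chr10:88428001-88429000 at its start, with 67.6%, 66.1%, 32.6% and 25.4% along the WT stages. MYH7B, a myosin heavy chain that hosts a muscle microRNA, fell from 54.3% to 27.2% inside the gene, but by 21.5 points as a mean over CpGs, which is under the limit. Of 32 CpGs measured within 2 kb of the TNNI3 start, 19 were lower by 25 points or more, as were 11 of 13 at LDB3.

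**Figure D3:**
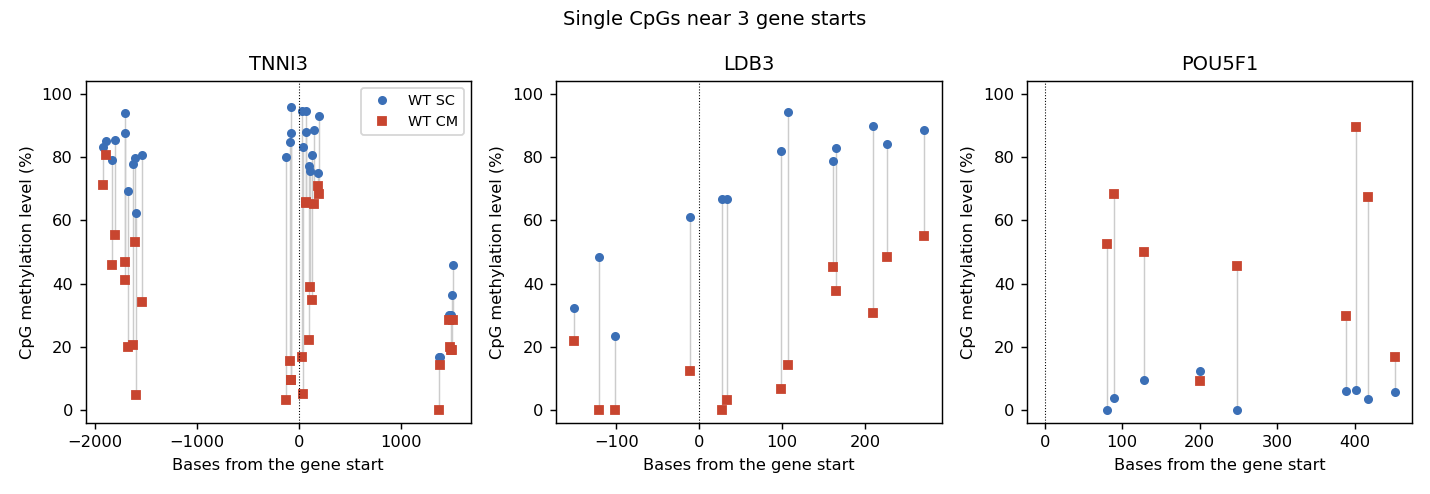
Methylation level (%) of single CpGs in WT SC (circles) and WT CM (squares) against their distance in bases from the gene start, counted along the gene, for TNNI3, LDB3 and POU5F1; grey lines join the libraries and the dotted line marks the start. CpGs at TNNI3 and LDB3 lie lower in WT CM near the start, and 6 of 9 CpGs past the POU5F1 start lie higher by 25 points or more.

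The plot of single CpGs shows that the loss was not even within a locus. At TNNI3 the CpGs from -128 to 41 bases from the start stood at 3.13% to 16.7% in WT CM, while those at 67 and 71 bases after it stood at 65.9% and 65.4%. CpGs around 1.4 kb into TNNI3 were already low in WT SC, with 16.7% at 1366 and 1377 bases, whereas TKO CP had 87.5% and 93.8% there. At LDB3, whose panel counts from the upstream one of its annotated starts, the level in WT CM climbed from 0% at 27 bases to 55.1% at 271 bases.

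Among the listed ion channel and calcium genes, 14 of 22 had a measured bin, with 187 bins in all, and 11 bins (5.88%, against 2.91% of all bins) fell. None rose, but with 0.128% of all bins rising a list of this size would seldom hold one. The median difference over the list was -1.09 points. KCNH2, the hERG potassium channel of repolarisation, had 4 of 17 bins called, all inside the gene. Its largest fall was at chr7:150667001-150668000, with 90.5%, 77.2%, 5.99% and 25.2% along the WT stages. The value in WT CM here lies above that in WT CP. KCNQ1, another repolarising potassium channel, had 3 of 87 bins called, and the largest fall was from 88.2% of 102 reads to 38.04% of 92 reads at chr11:2832001-2833000. CACNA1C, the pore of the L-type calcium channel, had 3 of 31, and the bin at chr12:2613001-2614000 stood at 81.0%, 79.1%, 31.4% and 32.1%. RYR2, the calcium release channel, was under 1% in both libraries over its start.

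Of the listed cardiac transcription factors, 23 of 25 had a measured bin. All 11 bins that fell, of 313 (3.51%, against 2.91% of all bins), lay in PRDM16, a zinc finger factor that alone supplied 175 of the 313 measured bins, so the share follows that gene's own 6.29%. The called bins of PRDM16 spread from 47.8 kb to 355 kb past its start. The largest, chr1:3208001-3209000, stood at 94.7%, 92.5%, 52.7% and 30.1% along WT. Another, chr1:3164001-3165000 with 19 CpGs, went from 65.8% to 19.2%. Of the 11, 2 did not keep 25 points as a mean over CpGs. TBX2 and TBX3, T-box repressors, each had 1 bin that rose, several kb past the start; they are 0.639% of the list's bins, against 0.128% of all bins. TBX3 stood at 11.3%, 25.04%, 53.5% and 49.1% at chr12:115112001-115113000, and TBX2 at 14.8%, 13.9%, 42.1% and 51.8% at chr17:59485001-59486000. In TKO SC these bins were already at 86.5% and 79.0%.

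The starts of the core cardiac factors showed no called bin. NKX2-5, a homeobox factor of the heart field, stood at 3.54% and 1.86% in the bin with 29 CpGs at chr5:172661001-172662000. HAND1 had 3 bins between 1.59% and 2.85% in WT SC and between 0.165% and 2.54% in WT CM. At TBX5, a T-box activator of the heart, the bin at chr12:114845001-114846000 stood at 1.98%, 2.08%, 9.60% and 19.2%, a difference of 17.3 points that missed the size limit at an adjusted p of 4.80e-26. ACTN2, the Z-disc actinin, stood at 11.8% and 3.62% in 1 bin and at 3.92% and 1.84% in the other. MYH6, the atrial myosin heavy chain, had 92.8%, 86.8%, 81.3% and 75% along WT, a difference of -17.8 points that also missed the limit. NANOG, DPPA4, MYH7, TNNT2 and NPPA had no measured bin over the start, and no position was used for GATA4. Of the marker starts read for the labels, POU5F1 was thus the only one with a called bin.

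Of 68 bins over 16 measured pluripotency genes, 2 (2.94%) rose, against 0.128% of all bins. None fell, against 2.91% of all bins, and a list of 68 bins is too small to read that count as a difference. POU5F1, the OCT4 factor that keeps the pluripotent state, had 5.19% of 347 reads methylated in WT SC and 57.9% of 261 reads in WT CM at chr6:31138001-31139000, just past its start, with 9.66% and 39.6% in the stages between. This is a rise by 52.7 points (95% Wilson intervals 3.31% to 8.05% and 51.8% to 63.7%; Fisher's exact test, adjusted p = 1.74e-47). In TKO the same bin went from 1.81% in SC to 10.6% in CME and 40.7% in CP, close to the WT CP value. Single CpGs in WT CM ran from 9.09% to 89.5% there. POU5F1 has near-identical pseudogene copies, so reads of the copies and of the gene could be mixed; this was not tested. DPPA4, a chromatin factor of pluripotent cells, stood at 3.40%, 4.03%, 2.99% and 31.2% at chr3:109054001-109055000, inside the gene. Its change lay between WT CP and WT CM, and as a mean over CpGs it was 19.8 points. SOX2, which is shared with neural cells, had 1.01% or less in both bins over its start in both libraries.

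**Figure D4:**
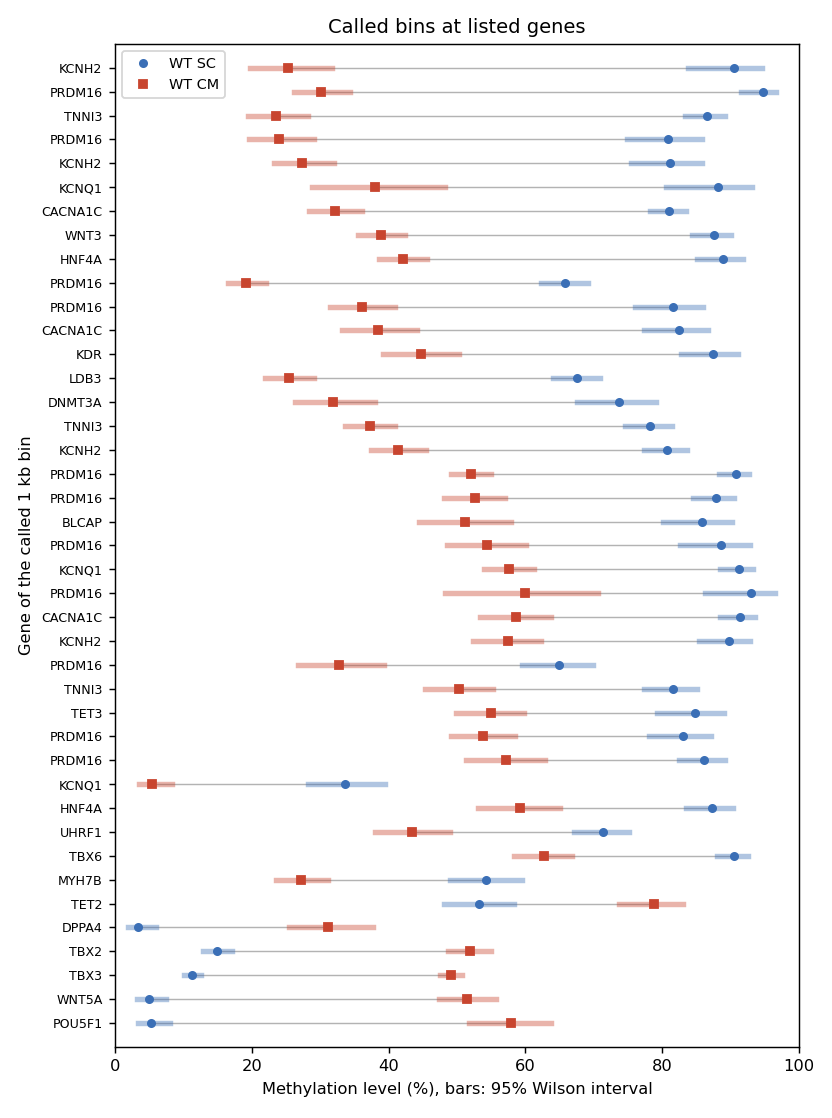
Methylation level (%) in WT SC (circles) and WT CM (squares) of 41 called bins at listed genes, sorted by difference, with 95% Wilson intervals as bars that cover counting error only. The 35 bins that fell are above and the 6 that rose, in TET2, DPPA4, TBX2, TBX3, WNT5A and POU5F1, are at the bottom.

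The plot of called bins at listed genes also shows the smaller lists. Their counts are small, and 2.91% of all bins fell and 0.128% rose. In early mesoderm 2 of 32 bins (6.25%) fell: KDR, the VEGF receptor of mesoderm and endothelium, went from 87.5% to 44.7% far past its start region, and TBX6 from 90.5% to 62.7%. In the WNT list, 1 of 79 bins (1.27%) fell and 1 rose. WNT3 went from 87.5% to 38.9% at chr17:44873001-44874000. WNT5A, a noncanonical ligand, rose from 4.87% through 7.06% and 42.2% to 51.5% at chr3:55508001-55509000, where TKO cells were at 90.7% already as stem cells. Among the methylation enzymes, 3 of 64 bins (4.69%) fell, in the methyltransferase DNMT3A (73.8% to 31.8%), in TET3 (84.8% to 54.9%) and in UHRF1, the partner of maintenance methylation (71.3% to 43.4%). TET2 rose from 53.3% to 78.7%, but by 18.7 points as a mean over CpGs. Of 80 bins at imprinted genes 1 (1.25%) fell, in BLCAP, and by 13.1 points on the plus strand alone. Cardiac hormones and metabolism (29 bins) and germline genes (25 bins) had no called bin.

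Genes of other cell types were read as a check on the labelled cells. Smooth muscle and fibroblast genes (40 bins over 7 genes), endothelial and blood genes (55 bins over 7 genes) and neural genes (49 bins over 6 genes) had no called bin. Their median bin levels were 6.35%, 6.41% and 2.46% in WT SC and 2.81%, 4.67% and 0.892% in WT CM, so most of these bins had no room to fall. Of 18 bins over the 2 measured endoderm genes 2 (11.1%, against 2.91% of all bins) fell, both in HNF4A, a liver and gut factor, so the count rests on that gene. They stood at 88.9% and 42.1% at chr20:43040001-43041000, and at 87.3% and 59.2% at chr20:43029001-43030000, the latter by 21.1 points as a mean over CpGs. The files hold methylation only, so the part of other cells in the WT CM library was not tested.

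Outside the lists, the largest gains were few and of different kinds. MINK1, a kinase of the Ste20 family, stood at 17.4%, 50.8%, 70.7% and 78.7% at chr17:4763001-4764000, with 60.3 points on the plus and 60.8 on the minus strand. ZNF672 had 2 adjoining bins that went from 23.5% to 68.8% over chr1:249141001-249143000, near the end of the chromosome. TNRC18 rose from 24.4% to 66.5% over 112 CpGs at chr7:5428001-5429000. A bin over EFEMP2 and MUS81 rose from 17.4% to 63.4% at chr11:65635001-65636000. At chr6:28725001-28726000, a bin with no located gene, WT went from 22.6% to 84.7% while TKO CP stood at 25.7%. The top gain by summed reads, at chr19:995001-996000, was 79.9 points, but 16.8 points as a mean over CpGs. A bin at chr2:133014001-133015000 had 50184 reads in WT SC and 13152 in WT CM; it rose by 43.2 points over summed reads and by 0.0663 points as a mean over CpGs. With the most deeply covered CpGs left out its difference was -3.01 points.

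Counting by gene, a choice made after the values were seen, 876 of 10910 genes with a measured bin held a bin that fell, 217 held 2 or more and 18 held 5 or more. In turn 60 genes held a bin that rose and 14 held both kinds. After PRDM16 with 11, KDM4B, a histone demethylase, had 10 of 84 bins. RXRA, the retinoid X receptor, had 9 of 61, and SEPTIN9, a cytoskeletal GTPase, had 9 of 42. NFATC1, a calcineurin-regulated factor of valve formation, had 8 of 68. ZFPM1, the GATA cofactor FOG1, had 8 of 54. RBM38, an RNA-binding protein, had 5 of only 11 bins and a median bin difference of -12.0 points. Genes with many measured bins can hold many called ones, and these counts were not set against chance.

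The promoters that could be read rarely changed. A window had to be located by its CpG spacing and hold 5 or more measured CpGs, which favours CpG-rich promoters. Of 13869 windows of 300 bases over located RefSeq starts, of 11669 genes, 91 (0.656%) fell and 4 (0.0288%) rose by the same rule. The 91 windows were of 85 genes, and some overlap and share CpGs, as at DOK4 and LDB3. In WT SC 93.5% of the windows were under 20%. Of the 555 that started over 80%, 39 (7.03%) fell. The medians of the 91 windows were 75.1%, 75.7%, 32.1% and 31.4% along the WT stages, and 86.3%, 85.9% and 89.6% in TKO. MCF2L went from 85.0% of 293 reads to 2.60% of 615 reads, TNNI3 from 87.4% to 9.42%, and FXYD1 from 85.3% to 17.6%. MESP2 stood at 70.6%, 48.1%, 6.67% and 8.97%, so WT CME already lay below WT SC. Its 2 measured bins of 1 kb differed by -17.3 and -5.26 points and were not called. MIR1-1HG stood at 57.4%, 63.9%, 9.96% and 4.50%, and LDB3 at 48.8%, 47.2%, 6.73% and 5.58%.

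**Figure D5:**
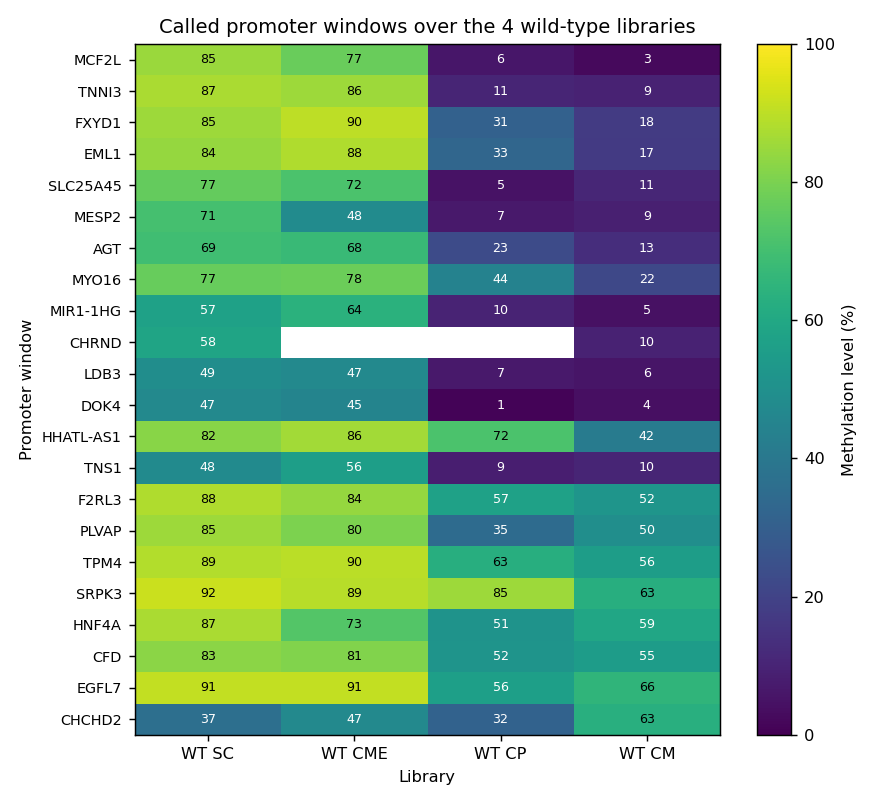
Methylation level (%) of 22 called promoter windows of 300 bases in the 4 WT libraries, from the largest fall at the top to the only rise at the bottom; colour and the rounded number in each cell give the level, and an empty cell had fewer than 5 CpGs with 10 reads. Most rows drop between WT CME and WT CP; SRPK3 and HHATL-AS1 drop between WT CP and WT CM.

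The plot of promoter windows shows further genes, likewise chosen after their values were seen. AGT, angiotensinogen, stood at 69.4% and 13.0%, and EML1, a microtubule-binding protein, at 84.2% and 17.1%. CHRND, a subunit of the muscle acetylcholine receptor, stood at 58.3% of 84 reads and 9.63% of 135 reads. TPM4, a tropomyosin, went from 88.6% to 55.7%. SRPK3, a muscle kinase of splicing factors on X, stood at 91.9%, 89.3%, 85.3% and 62.7%, and HHATL-AS1 at 82.3%, 86.1%, 71.8% and 41.5%. In both, most of the fall lay after the progenitor stage. PLVAP, a protein of vessel wall diaphragms, fell from 85.5% to 49.6%. EGFL7, a secreted protein of vessels, fell from 90.9% to 65.5%, on 119 reads in WT CM and by 11.5 points on the minus strand alone. CHCHD2, a mitochondrial protein, was the only protein-coding window that rose, from 36.7% to 63.0%; WT CP stood at 31.6%.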

How the data were processed

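Methylation was compared between WT SC and WT CM, 1 library each; groups were taken from the sample titles. Alignment and methylation calling were done by a core facility, per the labels' protocols, on hg19, per the submitters' processing notes. Aligner, caller and versions are not named in the labels or file headers used here. The deposited files give, per the file headers, a coverage count per CpG cytosine and strand and the percent of reads the authors called C and T. Every listed cytosine had a count of 10 or more; total coverage over listed cytosines was 120742115 reads in WT SC and 156566713 in WT CM. Levels between groups have no replicate, and intervals and p-values cover counting error only. They can be too small, since a read over several CpGs is counted repeatedly, as is a molecule copied in PCR.

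From these values, methylated and unmethylated reads were summed per CpG (strand R shifted by 1 base) and per 1 kb bin with 5 or more CpGs. Fisher's exact test (two-sided) with Benjamini-Hochberg adjustment over all bins was used, and a call needed an adjusted p below 0.01 and 25 points. The test was checked on simulated data. No hg19 annotation was used. Instead, RefSeq promoter sequences (GRCh38.p14, 250 bases before and 50 after each start) were found in the hg19 data by their spacing of CpGs. In all, 17632 of 35116 were located. The pattern alone, with 6 or more coinciding CpGs, found 14828. Of these, 14789 were kept because their displacement was within 1 kb of that of a neighbour. A further 2843 were placed between located neighbours. Gene ends were taken from the RefSeq gene length, so exon and intron are not given. For 55 listed genes not found in this way, well-known hg19 positions were used where they passed a check against gene length and located neighbours, which 51 did. This departs from the planned use of an annotation or a position table alone.

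Bins named were drawn from the 12 largest falls and rises with 100 or more reads in each library. Others came from the 6 runs with the most called bins in each direction and the start bins of 14 marker genes. The rest were called bins in listed genes or the 5 kb before them. The members and gene lists were chosen with earlier results of these data known; the promoter windows and the counts per gene were added after the bins had been seen. Alternatives changed the coverage limit, strand, weighting, bin width, CpG minimum, size and p limits and the unconverted share. The mitochondrial genome was kept apart. Some results at listed genes are not reported here, though counts over lists and bins include them. Computation used numba 0.67.0, scipy 1.17.1, pandas 2.3.3 and numpy 2.4.6 under Python 3.11.15, with matplotlib 3.10.9 for the plots.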

Additional observations from a re-analysis of the deposited data

Results flagged for a closer look

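Mitochondrial CpGs, which are in none of the bins compared, read C at a share of 1.46% in WT SC (417656 reads over 317 CpGs) and 0.216% in WT CM (54742 reads over 47 CpGs). Both shares are above what 3 reads would give.

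At the bins that fell from WT SC to WT CM, WT and TKO moved in opposite directions between stem cells and progenitors. Over 2429 such bins with a level in all libraries needed, the median change from SC to CP was -36.0 points in WT and 3.61 points in TKO. WT CP was below WT SC in all 2429, and TKO CP above TKO SC in 1871 (77.0%). The rise in TKO was general: over all 85789 bins with these levels TKO CP was above TKO SC in 68.5%, with a median change of 1.72 points, and over the 45705 of them that were above 80% in WT SC in 78.8%, with 3.20 points. WT SC had a part in choosing these bins, and the difference between the genotypes was not tested, since each has 1 library per stage.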

How the results depend on the processing

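No paired analysis was possible because each group has 1 library and the labels give no replicate numbers. At a size limit of 40 points 1002 bins were lower and 14 higher, and at 10 points 8620 and 1089. With 30 reads per CpG there were 1317 lower and 74 higher, with 10 CpGs per bin 715 and 45, and on the plus or minus strand alone 1351 and 1366 lower. These settings test fewer bins, except the size limit. WT CME in place of WT SC gave 41 higher bins and WT CP in place of WT CM 70 (both added after the data were seen), against 116. The other alternatives stayed within 1.5 times of both counts. The mean difference over CpGs was -2.07 with 20 reads per CpG, -2.05 with 30, -2.07 on the plus strand, -2.06 on the minus strand, -2.07 over CpGs read in all 7 libraries, -2.10 on autosomes, -1.74 with unconverted cytosine taken off and -5.52 points over all reads. The median bin difference was -1.19 as a mean over CpGs, -1.21 and -1.20 on the plus and minus strand, -0.82 with unconverted cytosine taken off, -1.22 in bins of 500 bases, -1.26 in bins of 2 kb and -1.29 with 10 CpGs per bin. No sign of these values changed. Promoter windows that fell numbered 42 and 39 on the plus and minus strand alone.

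Of 613 values of 81 named bins under alternatives, 598 kept their call or stayed uncalled, 13 lost the call and 2 reversed. A bin left with too few CpGs under an alternative gave no value there. The bin with the largest fall thus has none under the higher read limits or on a single strand. All named bins lie on autosomes, so any value counted under autosomes only was fixed in advance. Leaving out the most deeply covered CpGs also left most differences as they were. The 598 are therefore not a measure of how firm the calls are. Direction was scored at called bins only. Both scored reversals were at chr2:133014001-133015000, with -3.01 points without the most deeply covered CpGs and -1.92 on the plus strand. The cause was not tested. Some small differences at uncalled start bins also changed sign, as at HAND1 chr5:153856001-153857000, with -0.766 points and 1.41 on the plus strand alone. Of 80 values of 22 promoters, 4 lost the call, at HNF4A, EGFL7 and SRPK3. Depth limits what can be seen: bins had a median of 457 reads in WT SC and 579 in WT CM. The NANOG, MYH7, TNNT2 and NPPA starts had too few CpGs with 10 reads. Whether depth or the number of CpGs there was behind this was not tested.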
